A study of Mus musculus with 6 samples.

Results

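The 10 genes described here encode kinases that phosphorylate tau and the activators of one of them: Gsk3a and Gsk3b, Cdk5 with its activators Cdk5r1 and Cdk5r2, Mark1 to Mark4, and Fyn. They were named as a list and looked up by symbol, and all 10 were found among the 54429 genes in the count tables. Transcripts were counted in the prefrontal cortex (PFC) of 6-month-old mice, in 6 libraries that form 3 groups of 2. The WT group was C57BL/6 x C3H mice given vehicle, the Tau group was PS19(P301S) mice given vehicle, and the third group, Tau + UNC0642, was PS19(P301S) mice given UNC0642, an inhibitor of the histone methyltransferases EHMT1 and EHMT2, at 1 mg/kg in 3 daily injections. PS19(P301S) mice carry a transgene for human tau with the P301S mutation under the mouse prion (Prnp) promoter, so the human tau transcript does not answer to the promoter of the mouse tau gene.

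Tau is a microtubule-associated protein of neurons, and its phosphorylation loosens its hold on microtubules. Glycogen synthase kinase 3 (Gsk3a, Gsk3b) and cyclin-dependent kinase 5 (Cdk5) phosphorylate serines and threonines that stand before a proline. Cdk5 is inactive alone and works with p35 (Cdk5r1) or p39 (Cdk5r2), and cleavage of p35 by calpain releases a more stable activator. The microtubule affinity regulating kinases (Mark1 to Mark4) phosphorylate the repeats with which tau binds microtubules, and Fyn, a tyrosine kinase of the Src family, phosphorylates a tyrosine near the amino end of tau. Much of the control of these kinases acts on the proteins, and transcript levels do not report kinase activity.

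The libraries held 17005664 to 28972176 counts, and each member had between 630 and 10356 counts in every library, so that counting error was small and all 10 members passed the filter on low counts. Levels are given as CPM, counts relative to a library's total after TMM scaling. At the level of the libraries, 3 facts stood beside the group labels. Prnp, whose transcribed noncoding parts the transgene also carries, was at 1650 CPM in the library labelled WT replicate 1, at 872 in WT replicate 2 and at 1469 to 1692 in the other 4 libraries. Mapt, the mouse tau gene, was at 575, 448 and 570 to 613 CPM in the same order. The library labelled WT replicate 1 thus stood with the transgenic libraries in both genes, against its label, and the log2 fold changes of the members against WT are also given without it. Xist was at 191 to 316 CPM in WT replicate 2 and both Tau libraries and at 0.118 to 0.197 CPM in the other 3, while the Y-linked gene Ddx3y was at 0.114 to 0.643 CPM in the former and at 94.9 to 100.8 CPM in the latter. Tau and Tau + UNC0642 therefore differed in sex pattern as well as in treatment, and these cannot be told apart. The WT libraries differed from each other in this pattern. Without the library labelled WT replicate 1, WT has the sex pattern of Tau and differs in it from Tau + UNC0642. Without WT replicate 2, WT has the sex pattern of Tau + UNC0642 and differs in it from Tau. Where the patterns differ in those fits, group and sex pattern cannot be told apart. Tau replicate 2 stood apart in cell type markers. The summed level of 12 oligodendrocyte markers was 5936 CPM there against 1578 to 3171 in the other 5 libraries. The lowest of these was WT replicate 2 and the highest the library labelled WT replicate 1. That of 7 striatal markers was 176 CPM in Tau replicate 2 against 63.7 to 79.8, with no marker of either list at 0 in any library. There, 8 meningeal markers summed to 37.4 CPM against 50.2 to 78.5, and 8 microglia markers to 374 against 298 to 365. The summed level of 10 neuron markers ranged from 6300 to 7269 CPM. The transcripts of the enzymes that UNC0642 inhibits were at 43.6 to 48.9 CPM (Ehmt1) and 130 to 160 CPM (Ehmt2), and neither passed the test in any comparison.

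Because Mark1 to Mark4 and Gsk3a and Gsk3b are close relatives, the coding bases of their activation loops are shown first, since they are among the best conserved stretches and show how far reads of one gene can be told from those of another. Phosphorylation within this loop is one of the ways in which kinases are controlled. Each stretch has 39 bases, read 5′ to 3′ from GENCODE M21 transcripts (GRCm38), and capitals mark the positions at which the members of a family differ.
Mark1: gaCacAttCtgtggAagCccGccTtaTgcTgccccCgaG
Mark2: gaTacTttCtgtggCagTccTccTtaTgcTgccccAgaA
Mark3: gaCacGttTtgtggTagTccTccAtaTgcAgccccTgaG
Mark4: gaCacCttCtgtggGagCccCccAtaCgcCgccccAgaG
Gsk3a: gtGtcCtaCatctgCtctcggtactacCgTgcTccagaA
Gsk3b: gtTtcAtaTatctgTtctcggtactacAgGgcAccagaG
The Mark family differed at 11 of 39 positions, all of them at the last base of a codon, and its pairs were 76.9% to 82.1% identical. Gsk3a and Gsk3b differed at 8 positions, 7 of them at the last base of a codon. Over whole transcripts, Mark2, Mark4, Cdk5, Cdk5r1, Cdk5r2 and Fyn shared no stretch of 50 bases with any other gene, Mark1 and Mark3 shared 16 such stretches with each other, and Gsk3b shared 2 with Prkg1. Gsk3a was the exception: 19.4% of its 50-base stretches lay in another gene, 400 of them in the antisense gene 9130221H12Rik, which overlaps 28.3% of the exon bases of Gsk3a on the opposite strand, and 33 in Gm6275. The libraries were strand-specific, but the strand setting of the counting was not stated, and so the count of Gsk3a is less certain than those of the other members. Both genes had few counts, 33 to 76 for 9130221H12Rik and 2 to 14 for Gm6275, against 1166 to 2053 for Gsk3a.

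Compared per length, as CPM per kilobase of exon, Cdk5r1 was the highest member at 78.5 ± 6.5 (mean ± SD over all 6 libraries). Cdk5, the kinase it activates, followed at 38.3 ± 1.2. Mark1 (27.3 ± 2.2), Gsk3b (26.0 ± 3.0), Gsk3a (24.98 ± 1.1), Fyn (23.4 ± 2.0) and Cdk5r2 (18.9 ± 2.7) came next, and no neighbours within this run of 5 were separated in all libraries. On this scale Mark3 (11.5 ± 0.34) lay below all of these, and Mark2 (9.36 ± 0.89) and Mark4 (8.66 ± 1.4) were the lowest and overlapped each other. The lowest library of one gene lay above the highest library of the next after Cdk5r1, Cdk5, Cdk5r2 and Mark3. The order in the middle depends on the length used: with the longest transcript in place of all exons, Mark1 moved from place 3 to place 6 and Gsk3a from place 5 to place 3, and Mark3 (19.8) came to lie above Cdk5r2 (18.9), while Cdk5r1 and Cdk5 stayed at the top.

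Next, the members were compared across the groups. The quasi-likelihood test of edgeR was fitted on all 6 libraries, and a gene was called when it differed by 1.2-fold or more and its unadjusted p-value lay under 0.05. In bulk tissue, fewer cells of a type and less RNA per cell cannot be told apart. The library labelled WT replicate 1 went against its label, and the WT libraries differed in sex pattern. Comparing Tau with WT therefore does not isolate the transgene. In that comparison, 0 of 10 members were called by edgeR, against 9.82% of all 20409 genes tested. The DESeq2 Wald test and limma-voom also called 0, against 1322 and 2003 of the 20409 genes. By edgeR, 0 members had an unadjusted p-value under 0.05, against 12.4% of all genes. Tau + UNC0642 and Tau differed in treatment and in sex pattern. Comparing them, 0 of 10 were called by edgeR, against 7.69% of all genes. The DESeq2 Wald test called 0 and limma-voom 1 (Mark4), against 1055 and 1500 of the 20409 genes. An unadjusted p-value under 0.05 was found for 2 members, Mark2 and Gsk3b, both changed by under 1.2-fold, against 8.86% of all genes. Comparing Tau + UNC0642 with WT, 2 of 10 were called, Mark2 and Mark4, both lower, against 9.46% of all genes called in either direction and 5.69% called lower, and no further member had an unadjusted p-value under 0.05 (12.1% of all genes). These comparisons share groups and are not independent of each other. After Benjamini-Hochberg adjustment of the edgeR p-values over all genes, 0 members and 0.157%, 0.0196% and 0.216% of all genes passed in the 3 comparisons, and the smallest adjusted p of a member was 0.411, 0.496 and 0.278. The median log2 fold change of the members was -0.035, -0.066 and -0.063, beside -8.1e-05, -0.0023 and -0.012 over all genes. A test for any difference among the 3 groups gave an unadjusted p-value under 0.05 for 2 members, Mark2 and Mark4, against 12.6% of all genes, with adjusted p-values of 0.34 and 0.38 (edgeR quasi-likelihood F-test, Benjamini-Hochberg).

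**Figure D1:**
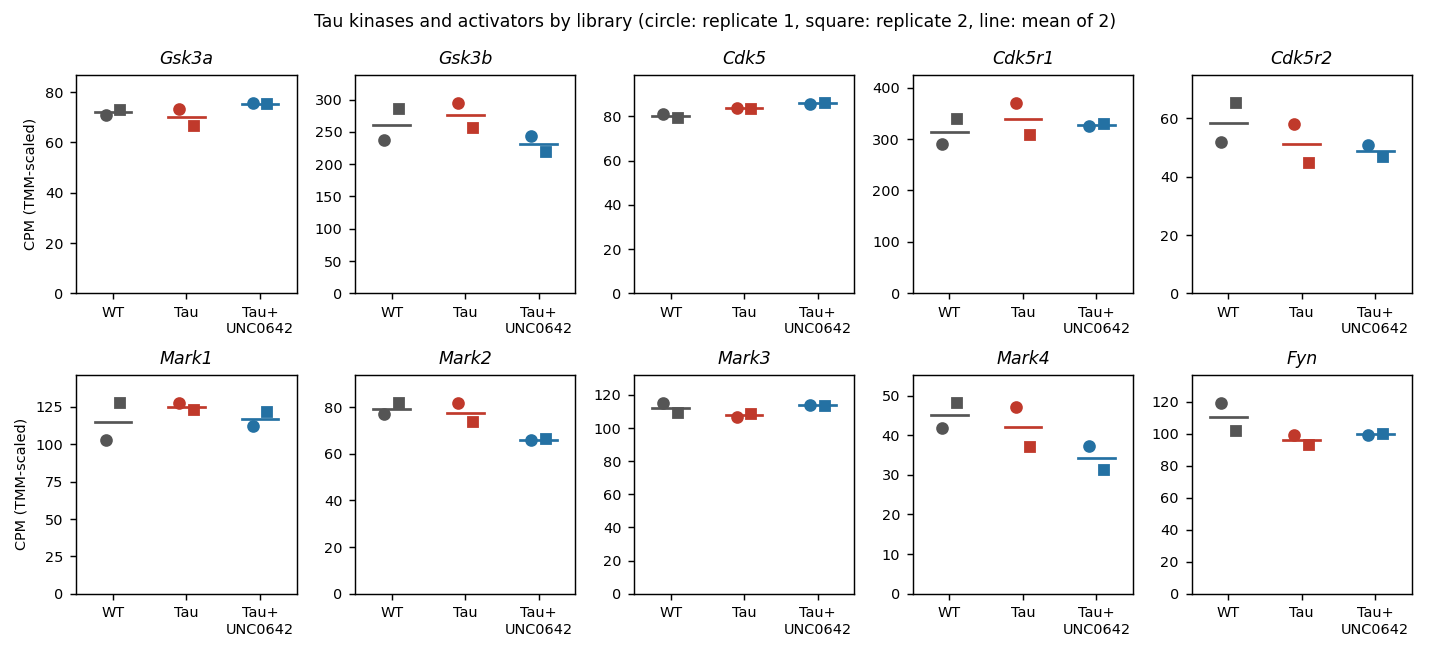
Level of each member (CPM, linear axes from 0) in the 6 libraries, by group, with circles for replicate 1, squares for replicate 2 and a line at the mean of 2. Mark2 sits at 65.9 and 66.4 CPM in the Tau + UNC0642 libraries, below the 73.5 to 81.7 CPM of the other 4. The treated libraries also lie below both Tau libraries for Gsk3b and Mark1, and below both WT libraries for Cdk5r2, Mark4 and Fyn. They lie above both Tau libraries for Gsk3a, Cdk5, Mark3 and Fyn, and above both WT libraries for Gsk3a and Cdk5. Groups did not overlap for 41.3% (against Tau) and 44.4% (against WT) of all genes.

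Mark2, also known as Par-1b, was the member with the smallest p-value. It stood at 77.1 and 81.7 CPM in the WT libraries, at 81.7 and 73.5 in Tau and at 65.9 and 66.4 in Tau + UNC0642. Both treated libraries lay below all 4 others, and WT and Tau overlapped. The log2 fold change was -0.26 (SE 0.087, edgeR with Benjamini-Hochberg adjusted p = 0.28) for Tau + UNC0642 against WT and -0.23 (SE 0.088, adjusted p = 0.50) against Tau. For Tau against WT it was -0.03 (SE 0.087). Against WT the level fell by 16.7%, just past the fold of 1.2, and this difference was called. Without the library labelled WT replicate 1 it was -0.31, and called, and without WT replicate 2 it was -0.22 and no longer called. Without Tau + UNC0642 replicate 1 it was -0.26 and without replicate 2 it was -0.27, and neither was called. With DESeq2 size factors or the DESeq2 Wald test it was -0.26 with a fold change just under 1.2, and it was not called. The call also ended with limma-voom and with a term for the sex pattern (-0.22). For Tau against WT the value without the library labelled WT replicate 1 was -0.07. Against Tau, it was -0.31 and called without Tau replicate 2, the library with high oligodendrocyte and striatal markers, and -0.15 and not called without Tau replicate 1.

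Mark4, a kinase of the same family, was the most variable member, with a level 1.54 times higher in its highest than in its lowest library. It stood at 41.9 and 48.0 CPM in WT, at 47.2 and 37.0 in Tau and at 37.3 and 31.1 in Tau + UNC0642. The treated libraries lay below both WT libraries but overlapped with Tau, whose replicate 2 was at the level of the higher treated library. The log2 fold change was -0.40 (SE 0.14, edgeR with Benjamini-Hochberg adjusted p = 0.30) against WT, which was called, and -0.31 (SE 0.14, adjusted p = 0.57) against Tau, which was not. Against WT it was -0.50 and called without the library labelled WT replicate 1, and -0.53 and called without Tau + UNC0642 replicate 1. It was -0.30 without WT replicate 2 and -0.27 without Tau + UNC0642 replicate 2, and neither was called. With a term for the sex pattern it was -0.30 and not called. Against Tau it was called in 4 of the 6 fits with a library left out: at -0.47 without Tau replicate 2, at -0.44 without Tau + UNC0642 replicate 1 and at -0.31 without either WT library. It was -0.12 without Tau replicate 1 and -0.18 without Tau + UNC0642 replicate 2, and neither was called. For Tau against WT the value was -0.09 (SE 0.14), and -0.19 without the library labelled WT replicate 1.

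The other 2 genes of the family did not pass the test in any comparison. Mark1 was at 103 and 127 CPM in WT, 127 and 123 in Tau and 112 and 122 in Tau + UNC0642, and the low value belonged to the library labelled WT replicate 1. Its log2 fold change for Tau against WT was 0.12 (SE 0.10), and it was -0.03 without that library and 0.28, called, without WT replicate 2. For Tau + UNC0642 against WT it was 0.02, and -0.13 without the library labelled WT replicate 1. Mark3 was the steadiest member, between 107 and 115 CPM in all 6 libraries, and its largest log2 fold change was 0.08 (SE 0.075), for Tau + UNC0642 against Tau. Its values against WT were -0.02 in Tau and 0.06 in Tau + UNC0642 without the library labelled WT replicate 1.

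Gsk3b, the better studied of the GSK-3 kinases in tau phosphorylation, was at 238 and 285 CPM in WT, 295 and 256 in Tau and 244 and 218 in Tau + UNC0642. The treated libraries lay below both Tau libraries, and overlapped with WT because of the low library labelled WT replicate 1. The log2 fold change was -0.25 (SE 0.11, edgeR with Benjamini-Hochberg adjusted p = 0.53) against Tau, where the level decreased by 16.2%, short of the fold of 1.2. Against WT it was -0.18 (SE 0.11) and not called. Without the library labelled WT replicate 1 the difference from WT was -0.30 and was called, and without WT replicate 2 it was -0.04. Tau differed from WT by 0.08, and by -0.05 without the library labelled WT replicate 1. The difference from Tau was -0.35 without Tau replicate 2 and -0.34 without Tau + UNC0642 replicate 1, both called, while it was -0.15 without Tau replicate 1 and -0.18 without Tau + UNC0642 replicate 2, and neither was called. Gsk3a, its paralog, was at 71.0 and 73.0 CPM in WT, 73.3 and 66.7 in Tau and 75.6 and 75.1 in Tau + UNC0642. Its log2 fold change was 0.11 (SE 0.085) for Tau + UNC0642 against Tau and -0.04 (SE 0.085) for Tau against WT. Against WT it was -0.06 in Tau and 0.05 in Tau + UNC0642 without the library labelled WT replicate 1.

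Cdk5 hardly varied, at 80.9 and 79.1 CPM in WT, 83.7 and 83.3 in Tau and 85.6 and 86.0 in Tau + UNC0642. The 3 groups did not overlap, yet the log2 fold changes of 0.04 to 0.10 (SE 0.077) were not called. In any single comparison, 41.3% to 44.4% of all genes had groups that did not overlap. The share with all 3 groups apart, as for Cdk5, is smaller and was not computed. The values against WT became 0.08 in Tau and 0.12 in Tau + UNC0642 without the library labelled WT replicate 1. Cdk5r1, which encodes p35, was at 291 and 338 CPM in WT, 370 and 308 in Tau and 325 and 330 in Tau + UNC0642, with overlap throughout and log2 fold changes of -0.05 to 0.11 (SE 0.10) that were not called. They were -0.0016 in Tau and -0.05 in Tau + UNC0642 against WT without the library labelled WT replicate 1. Cdk5r2, which encodes p39, was at 51.7 and 65.2 CPM in WT, 58.1 and 44.6 in Tau and 50.7 and 46.7 in Tau + UNC0642. The treated libraries lay below both WT libraries, with a log2 fold change of -0.27 (SE 0.14) that was not called. Without the library labelled WT replicate 1 this was -0.42 and called, and the difference of Tau from WT was then -0.34 and called, against -0.18 (SE 0.14) with it. Without WT replicate 2 these differences were -0.09 and -0.0037, and neither was called.

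Fyn, which is expressed in neurons and in oligodendrocytes, was at 119 and 102 CPM in WT, 99.1 and 93.0 in Tau and 99.2 and 100.1 in Tau + UNC0642. Both Tau libraries lay below both WT libraries, with a log2 fold change of -0.20 (SE 0.092, edgeR with Benjamini-Hochberg adjusted p = 0.41) that was not called. This rested on the library labelled WT replicate 1, the highest of the 6: without it the value was -0.08, and without WT replicate 2 it was -0.31 and called. For Tau + UNC0642 against WT it was -0.15, and -0.03 without the library labelled WT replicate 1. Fyn was lowest in Tau replicate 2, the library with the highest summed level of oligodendrocyte markers (5936 CPM). Fyn was highest in the library labelled WT replicate 1, where that sum was 3171 CPM, against 1578 in WT replicate 2. The part that cell makeup had in the values of the members was not tested.

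**Figure D2:**
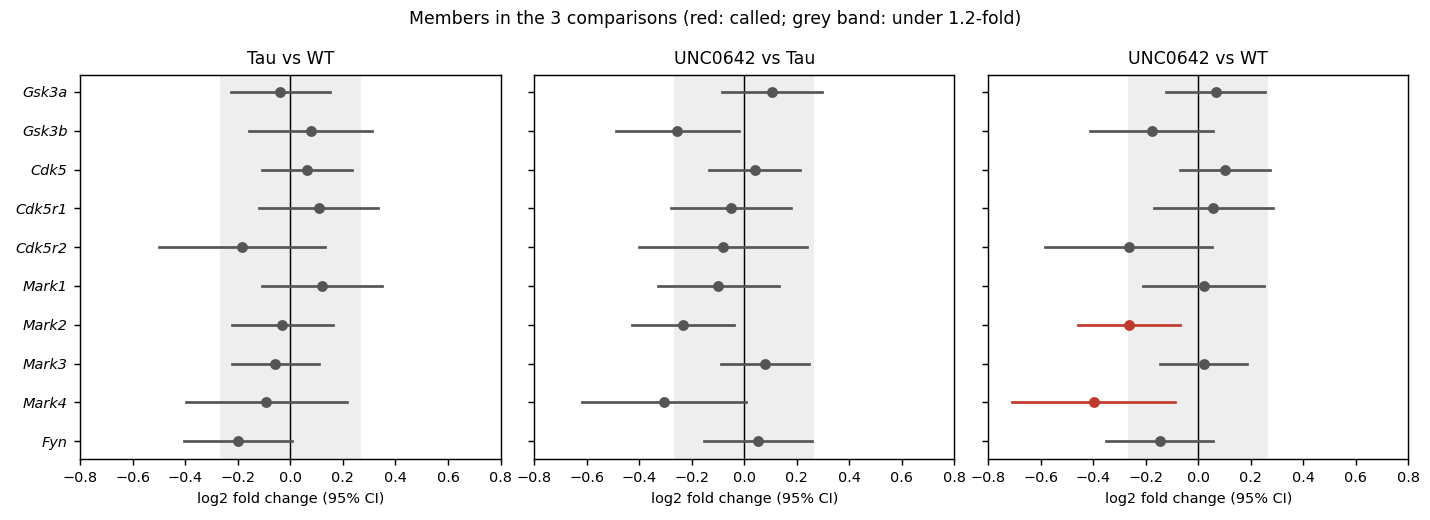
Log2 fold change of the 10 members (dots) with 95% confidence intervals (lines) from edgeR's quasi-likelihood fit, for Tau against WT, Tau + UNC0642 against Tau and Tau + UNC0642 against WT, with called members in red and a grey band for changes under 1.2-fold. The intervals are wide against the changes, and only Mark2 and Mark4 against WT are called.

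The 95% intervals, with 10.2 total degrees of freedom per gene, show what size of group difference the fit of all 6 libraries allowed. They take the groups as labelled and do not cover the sex pattern or the doubt about the library labelled WT replicate 1. They stayed within 1.5-fold for 10, 9 and 9 members in the 3 comparisons and within 2-fold for all 10 in each, and the largest change that any interval reached was 1.41-fold, 1.53-fold and 1.63-fold. Groups did not overlap for 3 members in Tau against WT (43.2% of all genes), 7 in Tau + UNC0642 against Tau (41.3%) and 6 in Tau + UNC0642 against WT (44.4%). The members moved little across libraries: the highest library stood 1.07 times (Mark3) to 1.54 times (Mark4) above the lowest, with a median of 1.26, beside 1.22 for the 6445 genes with a mean of at least 30 CPM. Tau replicate 1 was the highest library for 4 members and Tau replicate 2 the lowest for 3.

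**Figure D3:**
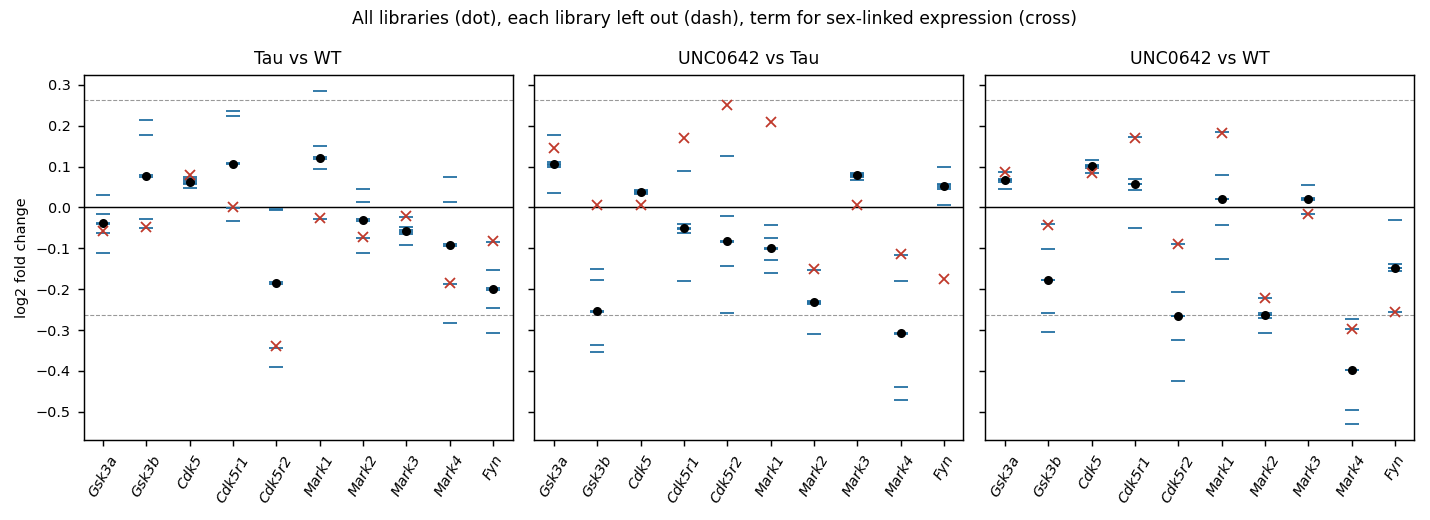
Log2 fold change of each member in the 3 comparisons with all libraries (dots), with each library left out in turn (dashes) and with a term for the sex pattern (crosses), with dashed lines at 1.2-fold. Mark2 and Mark4 stay below 0 in Tau + UNC0642 against WT under all of these, while the Tau against WT values of 6 of the 10 members lie on both sides of 0.

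Shares within a family do not depend on the scaling of a library. Gsk3b made up 51.6% ± 2.7 (SD, n = 2) of the summed Gsk3 level per kilobase in WT, 53.7% ± 0.77 in Tau and 47.5% ± 1.8 in Tau + UNC0642. Both treated libraries, at 48.7% and 46.2%, lay below the other 4, which began at 49.7% in the library labelled WT replicate 1. Cdk5r1 made up 78.4% ± 0.95 of the Cdk5 activators in WT, 81.7% ± 0.84 in Tau and 81.9% ± 1.0 in Tau + UNC0642, and both WT libraries lay below the other 4. In the Mark family the share of Mark1 was 45.8% ± 3.0, 49.0% ± 1.2 and 49.5% ± 2.3, that of Mark2 was 17.4% ± 0.77, 16.7% ± 0.42 and 15.4% ± 0.10, that of Mark3 was 20.2% ± 2.4, 19.0% ± 1.1 and 21.6% ± 0.32, and that of Mark4 was 16.7% ± 0.18, 15.3% ± 1.9 and 13.5% ± 1.9. In WT replicate 2 alone, the shares were 53.5% for Gsk3b, 77.7% for Cdk5r1, 47.9% for Mark1, 16.8% for Mark2, 18.4% for Mark3 and 16.8% for Mark4. These shares are given without a test.

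**Figure D4:**
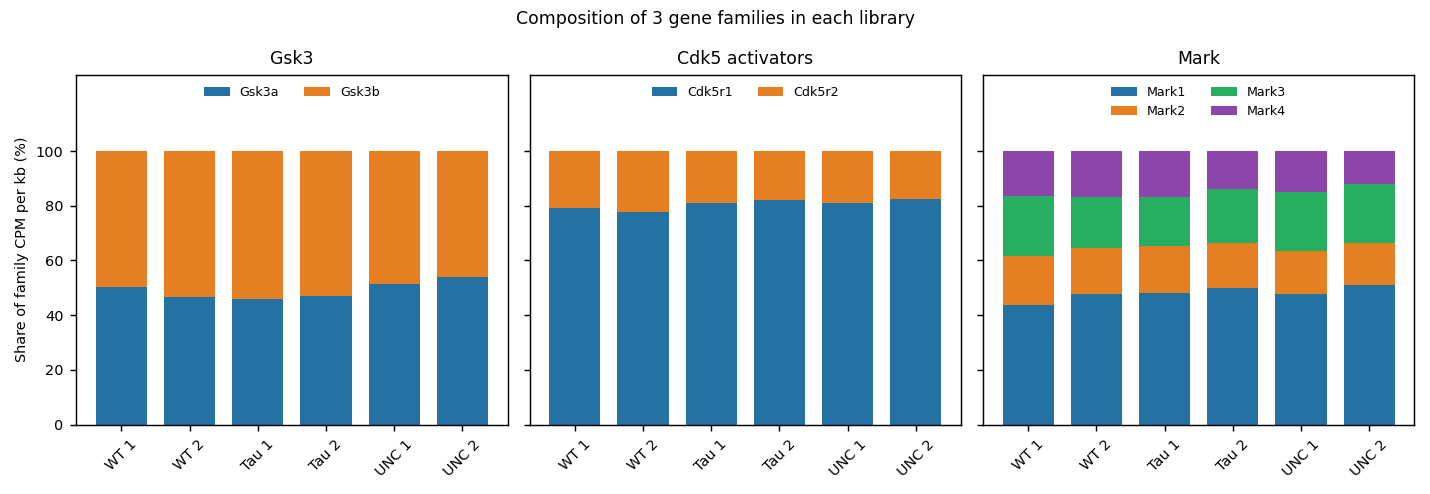
Share of each member in the summed level per kilobase of its family (stacked bars, percent) in the 6 libraries, for Gsk3, the Cdk5 activators and Mark. Gsk3a and Gsk3b are near equal throughout, Cdk5r1 makes up 77.7% to 82.6% of the activators, and Mark1 makes up 43.6% to 51.1% of the Mark family.

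The promoters of Mark2 and Gsk3b are shown because these members had an unadjusted edgeR p-value under 0.05 between treated and untreated Tau mice. Both were lower in the treated libraries (log2 fold changes of -0.23 and -0.25). The paper describes the histone mark that the inhibited enzymes place, H3K9me2, as repressive. Whether this mark has a part in these levels was not tested. The mark itself was not measured in these libraries. Each sequence holds the 250 bases before a start of the gene in RefSeq (GRCm38.p6), 5′ to 3′ on the strand of the gene, with each CG in capitals. Mark2 is on the minus strand (chr19:7341861-7342110) and Gsk3b on the plus strand (chr16:38088751-38089000).
Mark2: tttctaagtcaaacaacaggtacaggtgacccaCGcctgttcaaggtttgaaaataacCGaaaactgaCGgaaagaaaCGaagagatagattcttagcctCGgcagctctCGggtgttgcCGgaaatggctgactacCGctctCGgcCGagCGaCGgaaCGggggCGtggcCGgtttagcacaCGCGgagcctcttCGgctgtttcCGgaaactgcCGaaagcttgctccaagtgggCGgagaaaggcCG
Gsk3b: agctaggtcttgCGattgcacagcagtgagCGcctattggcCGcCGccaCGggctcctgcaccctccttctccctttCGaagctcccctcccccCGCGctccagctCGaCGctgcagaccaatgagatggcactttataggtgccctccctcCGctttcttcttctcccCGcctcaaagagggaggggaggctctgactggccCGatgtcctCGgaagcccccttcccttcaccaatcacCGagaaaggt
Promoter entries were found for 7 of the 10 members, 10 entries in all. With the 50 bases after the start, the entry of Mark2 shown held 25 CG and that of Gsk3b 21, while a second start of Mark2, not shown, had an entry with 7, beside a median of 7 over 32851 promoters of the same length, of which 18.4% held at least 25 and 24.8% at least 21. The GC box GGGCGG, looked for on both strands, was in 9 of the 10 entries and in 35.7% of all promoters, and the entry of Gsk3b was the one without it. The entries are not independent: Mark1, Mark2 and Mark3 have several each, and those of Mark3 overlap almost fully. The share over all promoters was not matched for GC content. A match of letters is a description of the sequence only.

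The 5 genes whose pattern over the 6 libraries was most like that of Mark2 were Tmem201, Abhd2, Fam104a, Lhfpl4 and Grik4, among 10196 genes with a mean of at least 10 CPM. The root mean square difference in centred log2 CPM was 0.016 for Tmem201 and 0.027 for Grik4. Among the members, Gsk3b came nearest, at 0.087 and place 540.

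The other genes around tau phosphorylation were taken as lists. With all libraries, 9.82% of all genes were called in Tau against WT, 7.69% in Tau + UNC0642 against Tau and 9.46% in Tau + UNC0642 against WT. The counts of called genes in the lists are to be read beside these shares. Of 38 other tau kinases, 1 rose in Tau against WT, 1 fell in Tau + UNC0642 against Tau, and 1 rose and 2 fell in Tau + UNC0642 against WT, with medians of 0.029, -0.014 and 0.026. The gene that rose was Sgk1, a kinase induced by glucocorticoids, with log2 fold changes of 1.30 (SE 0.21, edgeR with Benjamini-Hochberg adjusted p = 0.054) in Tau and 0.96 (SE 0.21, adjusted p = 0.12) in Tau + UNC0642 against WT. Among those that fell were Prkaca, the catalytic subunit of protein kinase A, at -0.31 (SE 0.091) against Tau, and Dyrk1b at -0.38 (SE 0.15) against WT. Camk2a, the kinase of the list with the highest level, had log2 fold changes of -0.13 to 0.08 and was not called. Without the library labelled WT replicate 1, Sgk1 kept its calls (1.32 in Tau and 0.99 in Tau + UNC0642 against WT), that of Dyrk1b (-0.39) against WT ended, and Prkaca (-0.31) and Ttbk1 (-0.34) were called lower against WT. Without Tau replicate 2, Sgk1 was at 0.84 in Tau against WT, a smaller rise that was still called, and its difference between Tau + UNC0642 and Tau turned from -0.33 to 0.13, called in neither case. In the same fit Prkaca was at -0.40 against Tau and still called, and Dyrk1b (-0.40) and Camk2d (-0.35) were called lower as well.

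Of 32 regulators of the members, 2 rose and 1 fell in Tau against WT, 1 fell in Tau + UNC0642 against Tau, and 2 rose and 1 fell in Tau + UNC0642 against WT, with medians of 0.079, -0.026 and 0.018. The shares of all genes called were 9.82%, 7.69% and 9.46%. Gskip, which binds GSK-3, rose by 0.31 (SE 0.10) in Tau and by 0.47 (SE 0.10) in Tau + UNC0642 against WT. Capn1, a calpain, rose in Tau by 0.28 (SE 0.13), and Strada, a partner of the kinase LKB1 that activates the Mark kinases, fell by 0.36 on the log2 scale (SE 0.14). Cbl, a ubiquitin ligase of Src family kinases, had -0.29 in Tau + UNC0642 against Tau and was called lower. Against WT, Ywhaq, a 14-3-3 protein, rose by 0.29 and Frat1, a GSK-3 binding protein, fell by 0.44. Ywhag, the regulator with the highest level, was not called. Without the library labelled WT replicate 1, Gskip was called at 0.32 in Tau and 0.47 in Tau + UNC0642 against WT and Ywhaq at 0.43, and Cbl was called lower against WT (-0.35, beside -0.20 with all libraries), while the calls of Capn1 (0.28), Strada (-0.30) and Frat1 (-0.26) ended. Those of Capn1 (0.19) and Strada (-0.19) in Tau ended without Tau replicate 2 too.

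Of 27 phosphatase genes, Ppp2r1b, a scaffold subunit of protein phosphatase 2A, rose in Tau (0.54, SE 0.15) and in Tau + UNC0642 (0.57, SE 0.15) against WT, and Ppp3cc, a calcineurin subunit, fell in Tau against WT (-0.34, SE 0.14). Between Tau + UNC0642 and Tau, edgeR called 0 of the 27 (7.69% of all genes), of which 2 had an unadjusted p-value under 0.05 (8.86% of all genes). The medians in the 3 comparisons were 0.11, 0.0017 and 0.099. Ppp3ca, the highest of the list, was not called. Without the library labelled WT replicate 1, Ppp2r1b was at 0.74 and 0.78 and called in both, and Ppp3cc was at -0.18 and not called, and without Tau replicate 2 Ppp3cc was at -0.38 and not called either. Of 10 substrates, Dcx, a microtubule-binding protein of young neurons, fell against WT in Tau (-0.98, SE 0.13) and in Tau + UNC0642 (-0.83, SE 0.13), with adjusted p-values of 0.036 and 0.045 (edgeR quasi-likelihood test, Benjamini-Hochberg). Map1b fell in Tau + UNC0642 against Tau (-0.27, SE 0.098), and Map2, the highest of the list, was not called. Ppp1r1b, which is abundant in the striatum, was called higher in Tau against WT (0.61, SE 0.25) and lower in Tau + UNC0642 against Tau (-0.63, SE 0.25), and the library with high striatal markers, Tau replicate 2, is in both comparisons. Without Tau replicate 2 it was at 0.05 and -0.07 and not called. Dcx was at -0.83 and -0.68 without the library labelled WT replicate 1, and at -0.86 in Tau without Tau replicate 2, and was called each time. Without the library labelled WT replicate 1, Mapt was at 0.42 in Tau and at 0.40 in Tau + UNC0642 against WT. That library was set apart partly by its Mapt level, so this rise follows from the choice and is not a separate result. With all libraries Mapt was not called. Whether reads of the human transgene were counted as Mapt was not tested. In the fit without the library labelled WT replicate 1, Grin2b, an NMDA receptor subunit, was called lower in Tau + UNC0642 against WT (-0.49). Without Tau replicate 2, Grin2b was called lower in Tau + UNC0642 against Tau (-0.39) and against WT (-0.29), and Dpysl2 against Tau. The median log2 fold changes of the substrates were 0.10, -0.16 and -0.081. Of the 6 endothelial markers, 4 fell in Tau against WT and 3 in Tau + UNC0642 against WT, and of the 8 microglia markers 2 rose in Tau against WT. In Tau + UNC0642 against Tau, 1 endothelial marker rose and 1 microglia marker fell, and 1 microglia marker rose against WT. Of the 12 oligodendrocyte markers 5 rose in Tau against WT and 3 fell in Tau + UNC0642 against Tau, and of the 7 striatal markers 6 rose and 5 fell. Among the 10 neuron markers, 1 rose in Tau against WT, 1 in Tau + UNC0642 against Tau and 3 in Tau + UNC0642 against WT. Among 6 markers of oligodendrocyte progenitors, 1 rose and 1 fell in Tau against WT. In Tau + UNC0642, 2 of them fell against Tau and 1 against WT. Among 7 meningeal markers tested, 2 fell in Tau and 1 in Tau + UNC0642 against WT. Among 8 astrocyte markers, 1 rose in Tau against WT. The shares of all genes called in either direction were 9.82%, 7.69% and 9.46% in the 3 comparisons. Without Tau replicate 2, no oligodendrocyte marker was called in either comparison by edgeR, and of the striatal markers 0 were called in Tau against WT and 1 in Tau + UNC0642 against Tau. Leaving out the library labelled WT replicate 1, 11 oligodendrocyte, 3 striatal and 2 microglia markers rose and 3 endothelial markers fell in Tau against WT, and 1 endothelial marker fell in Tau + UNC0642 against WT. Their part in the results above was not tested.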

How the data were processed

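RNA sequencing of PFC was analysed in 6 libraries, 2 biological replicates in each of 3 groups, with groups and replicate numbers from the sample titles. The authors trimmed reads with Cutadapt, aligned them with TopHat2 and counted them per gene with featureCounts, and the submitters' processing notes name mm10. The deposited values are raw counts, not normalized. The annotation release and strand setting of the counting are not given in the sources used here. Names of 26 genes stood as dates in 2 of the files (WT replicate 2 and Tau replicate 2) and were restored by position. Coordinates and lengths came from GENCODE M21 (GRCm38) by symbol, matched for 98.6% of genes.

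Counts were analysed with edgeR 4.0.16 in R 4.3.3. The filter filterByExpr (minimum count 10, minimum total 15) kept 20409 genes, TMM factors were 0.967 to 1.04, and the quasi-likelihood fit of all 6 libraries, with group as its only term, left 3 residual degrees of freedom (biological coefficient of variation 12.3%). Standard errors are the log2 fold change divided by the root of F. A floor of 3 counts is 0.104 to 0.176 CPM. Alternatives used DESeq2 1.42.0 and limma 3.58.1, and tables and figures Python 3.11.15, pandas 2.3.3, numpy 2.4.6 and matplotlib 3.10.9. The fit was also run on simulated counts, drawn without a sex difference, a doubtful label or a difference in cell makeup. That run does not speak to these features of the data, and no result rests on it. Same-numbered libraries come from different mice and were not treated as pairs.

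The members and lists were chosen with earlier results of these data known. Named were all members, Mapt, Prnp, Xist, Ddx3y, Ehmt1 and Ehmt2, at most 6 called genes of each other list with the smallest p plus the gene with the highest mean, and the 5 genes most like the member with the smallest p over the 3 groups. The floor of 30 CPM, the stretches of 50 bases, the loops, the promoters and the naming of Ttbk1, Camk2d, Grin2b and Dpysl2 were chosen after the data were seen. The values of 1 called gene of the other tau kinases are not reported here.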

Additional observations from a re-analysis of the deposited data

How the results depend on the processing

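The number of members called in Tau against WT was 0, and 1 with scaling by library size (Fyn) or a term for the sex pattern (Cdk5r2), with 0 to 2 when each library was left out. For Tau + UNC0642 against Tau it was 0, 2 with no fold limit, and 1 with no filter on low counts or with limma-voom (Mark4), with 0 to 3 without each library. For Tau + UNC0642 against WT it was 2, 3 with library size or with no filter on low counts (Cdk5r2, Mark2 and Mark4 in each), 1 with DESeq2 size factors, the DESeq2 Wald test or limma-voom (Mark4 in each), and 0 with a fold of 1.5, with adjusted p-values or with the sex term, with 0 to 4 without each library. The counts of 4 without the library labelled WT replicate 1 and of 0 without WT replicate 2 or without Tau + UNC0642 replicate 2 were the extremes. With the replicate block the counts were 0, 0 and 2, and it changed no call of a member. Of all 20409 genes, library size called 2156, 1536 and 2015 in the 3 comparisons, and the sex term 1880, 1641 and 2068. DESeq2 size factors called 1999, 1562 and 1930, the DESeq2 Wald test 1322, 1055 and 1397, and limma-voom 2003, 1500 and 1860. With no filter on low counts, 2788, 2342 and 2586 of 34535 genes were called. The replicate block called 1791, 1404 and 1755 of 20409. The log2 difference between replicate 1 and replicate 2 of each gene was also correlated between groups. The correlations were -0.034 (WT and Tau), -0.021 (WT and Tau + UNC0642) and -0.0033 (Tau and Tau + UNC0642).

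The medians lay between -0.079 and 0.057, between -0.15 and 0.055, and between -0.089 and -0.028 when each library was left out. The sex term rests on the difference between the WT libraries alone, 1 of which goes against its label. With it, values changed sign for Gsk3b (-0.048) and Mark1 (-0.025) in Tau against WT, for Gsk3b (0.0059), Cdk5r1 (0.17), Cdk5r2 (0.25), Mark1 (0.21) and Fyn (-0.17) in Tau + UNC0642 against Tau and for Mark3 (-0.015) against WT. With library size they did so for Cdk5 (-0.0069) in Tau against WT and for Mark1 (-0.016) and Mark3 (-0.018) in Tau + UNC0642 against WT. Leaving out each library moved these values across 0: in Tau against WT Gsk3a (-0.11 to 0.030), Gsk3b (-0.051 to 0.21), Cdk5r1 (-0.033 to 0.24), Mark1 (-0.028 to 0.28), Mark2 (-0.11 to 0.045) and Mark4 (-0.28 to 0.073), in Tau + UNC0642 against Tau Cdk5r1 (-0.18 to 0.089) and Cdk5r2 (-0.26 to 0.13), and in Tau + UNC0642 against WT Cdk5r1 (-0.051 to 0.17), Mark1 (-0.13 to 0.18) and Mark3 (-0.015 to 0.056). No value with a changed sign was called.

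With the longest transcript, the highest level per length was 7.55 times the lowest, Gsk3b made up 48.9% of its family and Mark1 37.6%. Where a library was left out, the lone library of its group was assumed to vary like the other groups. Leaving out the library labelled WT replicate 1 or Tau replicate 2 for the other lists and the cell type markers was chosen after the data were seen. It moved the numbers called in Tau against WT from 3 to 1 for the regulators and from 2 to 1 for the phosphatases, in both cases with either library left out, and from 2 to between 1 and 3 for the substrates. In Tau + UNC0642 against Tau it moved them from 1 to between 1 and 3 for the other kinases and from 0 to between 0 and 1 for the phosphatases, and against WT from 1 to between 1 and 2 for the phosphatases and from 1 to between 2 and 3 for the substrates. Mapt was among the substrates called without the library labelled WT replicate 1, which had been set apart partly by its Mapt level. The cause of the changes between settings was not tested.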
